A study of Mus musculus with 8 samples.

Results

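The cartilage collagen genes are 7 genes chosen by name, *Col2a1*, *Col9a1*, *Col9a2*, *Col9a3*, *Col11a1*, *Col11a2* and *Col27a1*, out of 32285 genes in the RNA matrix. Of 116068 peaks in the matrix of open chromatin (ATAC), 24 lay within 2000 bp of 1 of these genes. The data came from alveolarspheres, three-dimensional cultures of mouse type II alveolar epithelial cells (ATII cells, which make surfactant and can become the flat type I, or ATI, cells). Cultures of cells from young and old mice were infected on day 9 with adeno-associated virus of serotype 9 and kept for 4 days in medium that drives differentiation toward ATI cells. In the Sox9-Cre group (2 RNA and 2 ATAC samples) the virus carried *Sox9* together with Cre recombinase. In the Cre group (2 RNA and 2 ATAC samples) it carried Cre alone, so the virus of both groups carried Cre. Whether each cell was infected is not known from the labels. Cells with the tdTomato reporter were sorted, and each nucleus gave both an RNA and an ATAC profile. The sources used here do not give the reporter's driver, the number of mice or the age behind each nucleus.

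The nuclei carry 4 barcode prefixes, called libraries A, B, C and D, and the labels do not say which sample a prefix belongs to. Sox9-Cre was therefore not compared with Cre. Instead nuclei were binned within each library by their UMIs of *Sox9* (unique molecular identifiers, each standing for 1 captured molecule of RNA) into 0, 1-2, 3-4 and 5 or more. UMIs of the mouse gene and of the virus copy of *Sox9* were not told apart. Nuclei called without *Sox9* or *Sox9*-free below are those with no captured *Sox9* UMI, and they may still hold *Sox9* RNA. Library A kept 1260 nuclei (13535837 UMIs), B 760 (9735964), C 3236 (39802631) and D 1928 (25016636), or 7184 together, and 20 barcodes occurred in more than 1 library. Library C had 197 nuclei (6.09%) with 5 or more *Sox9* UMIs, D 114 (5.91%), A 1 and B 0. Without any *Sox9* UMI there were 2172 nuclei in C, 1354 in D, 1248 in A and 750 in B, so the bins could be compared within C and D only. The median nucleus with 5 or more *Sox9* UMIs held 14552 UMIs in C and 13728.5 in D, against 10387 and 11173.5 in nuclei without one. A level is the share of a bin's RNA that a gene takes, as its UMIs in every 10000. All intervals are exact 95% intervals and cover counting error only, since nuclei are not replicates and the pooled matrix counts as 1 sample, and no p-value is given.

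Cartilage fibrils are built mainly from type II collagen, with type XI collagen in their core and type IX collagen on their surface. Sox9 is the transcription factor that switches on these genes in chondrocytes, the cells of cartilage, where it acts with its relatives Sox5 and Sox6 at enhancers of the collagen genes. In the lung, cartilage lies around the larger airways and not in the alveoli, and Sox9 is best known there as a marker of the growing tips of the embryonic airway tree.

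Promoters of 5 of the 7 genes were found in a RefSeq table of GRCm38.p6, which gives 300 bases from 250 before the start of a transcript to 50 after it. Those of *Col9a2*, *Col11a2* and *Col27a1* overlapped an ATAC peak and are printed from 5′ to 3′ because accessibility over them is compared below. All 3 lie on the plus strand, and capitals mark bases inside the deposited peak. They are chr4:121039316-121039615 for *Col9a2*, with 180 bases in the peak, chr17:34038888-34039187 for *Col11a2*, with 194 bases in the peak, and chr4:63215162-63215461 for *Col27a1*, with all 300 in the peak.
Col9a2 promoter: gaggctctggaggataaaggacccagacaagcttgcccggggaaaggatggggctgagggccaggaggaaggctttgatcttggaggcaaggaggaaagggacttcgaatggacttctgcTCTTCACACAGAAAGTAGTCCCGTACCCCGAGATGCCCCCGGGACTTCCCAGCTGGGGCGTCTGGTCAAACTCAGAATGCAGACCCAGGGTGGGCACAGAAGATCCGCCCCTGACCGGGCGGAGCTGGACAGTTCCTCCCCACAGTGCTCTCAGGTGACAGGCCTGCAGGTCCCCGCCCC
Col11a2 promoter: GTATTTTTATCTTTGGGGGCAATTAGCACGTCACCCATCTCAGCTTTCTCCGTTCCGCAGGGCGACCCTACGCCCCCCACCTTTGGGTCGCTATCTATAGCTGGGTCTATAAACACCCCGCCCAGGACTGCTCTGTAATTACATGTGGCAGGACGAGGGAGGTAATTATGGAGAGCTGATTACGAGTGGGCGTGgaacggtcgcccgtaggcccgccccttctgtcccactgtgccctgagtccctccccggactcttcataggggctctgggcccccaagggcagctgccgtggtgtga
Col27a1 promoter: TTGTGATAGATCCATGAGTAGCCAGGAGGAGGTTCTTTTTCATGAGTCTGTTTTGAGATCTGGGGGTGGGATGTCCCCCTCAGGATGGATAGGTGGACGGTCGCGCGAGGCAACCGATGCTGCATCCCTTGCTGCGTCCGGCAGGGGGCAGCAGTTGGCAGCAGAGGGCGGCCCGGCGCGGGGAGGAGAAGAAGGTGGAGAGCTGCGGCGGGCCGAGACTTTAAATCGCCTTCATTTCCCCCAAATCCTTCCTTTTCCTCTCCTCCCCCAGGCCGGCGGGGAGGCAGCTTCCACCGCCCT
Sox proteins bind short sites, and the motif ACAAAG, the motif ACAATG and the motif AACAAT were searched on both strands, where the matches may overlap one another. None occurred in the 6 promoters listed for *Col9a1*, *Col9a2*, *Col11a1*, *Col11a2* and *Col27a1*, of which *Col9a1* has 2. Among all 32851 promoters of the table, 18.7% held the first of these motifs, 12.6% the next and 10.7% the last, and 33.2% held at least 1 of them. These letters not being in these windows says nothing of the factor.

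The 7 genes together gave 1336 UMIs in 477 nuclei, and 738 of these UMIs (55.2%) fell in the 312 nuclei with 5 or more *Sox9* UMIs, which were 4.34% of all nuclei and held 5.43% of all UMIs. The summed level was higher in each next *Sox9* bin in both libraries. In C it was 0.0393 (0.0320 to 0.0479) at 0, 0.150 (0.126 to 0.177) at 1-2, 0.406 (0.331 to 0.493) at 3-4 and 1.64 (1.5 to 1.8) at 5 or more *Sox9* UMIs. In D it was 0.0416 (0.0324 to 0.0526), 0.151 (0.119 to 0.189), 0.322 (0.235 to 0.432) and 1.39 (1.22 to 1.57) in the same order. No neighbouring bins had overlapping intervals in either library. The fold of 5 or more over 0 was 41.8 (33.6 to 52.4) in C and 33.3 (25.5 to 44.1) in D. With *Sox9* and the genes both thinned to 5000 UMIs per nucleus and 3 or more *Sox9* UMIs as the top bin, it was 28.8 in C and 18.8 in D, and with 10 or more as the top bin it was 65.9 in C and 32.5 in D. Nuclei without *Sox9* in libraries A and B had 0.0315 (0.0227 to 0.0426) and 0.0262 (0.0169 to 0.0386), within the same range of low values. With *Col9a3* left out, the other 6 genes gave folds of 35.5 (27.4 to 46.3) in C and 25.9 (19.04 to 35.8) in D.

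**Figure D1:**
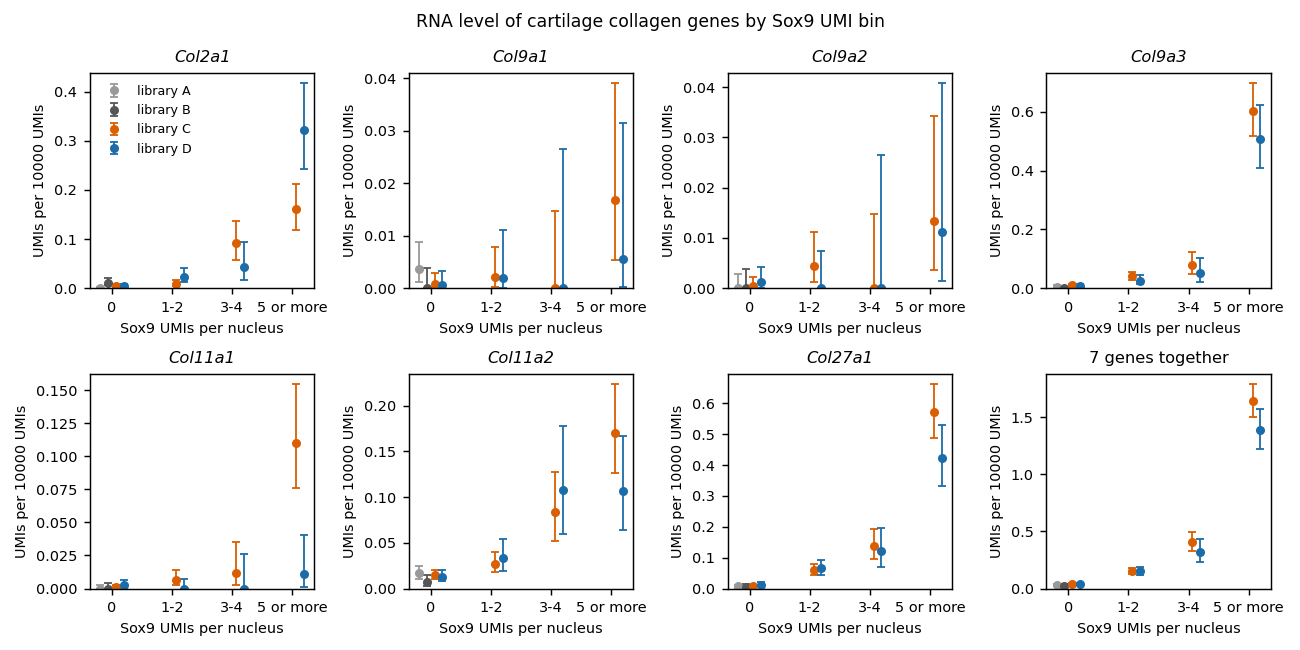
RNA level of each cartilage collagen gene and of all 7 together (UMIs per 10000 UMIs) by *Sox9* UMIs per nucleus. Points are libraries A (light grey), B (dark grey), C (orange) and D (blue), bars are exact Poisson 95% intervals, and bins under 50 nuclei are left out. The 7 genes together reach 1.64 in C and 1.39 in D at 5 or more *Sox9* UMIs, with A and B at 0.0315 and 0.0262 in nuclei without *Sox9*.

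A gene was compared where it had 30 UMIs or more in the top and the *Sox9*-free bin together, and counted as higher or lower from 2-fold on. Of the 7 genes, 5 met this in C and 4 in D, and each of them was higher in nuclei with 5 or more *Sox9* UMIs. Over all genes, 5.67% of 13772 were higher in C and 4.81% of 12954 in D, while 4.89% and 6.06% were lower. With a minimum of 10 UMIs the same 5 and 4 genes were compared, beside 8.16% of all genes higher and 4.1% lower in C and 6.39% higher and 5.08% lower in D. A gene of low level can reach 30 UMIs through the bin where it is high, so the count of 5 and 4 is not read as a result on all 7 genes.

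*Col2a1* (chr15:97975602-98004724, GRCm38.p6) encodes the chain of type II collagen, the main fibril of cartilage. Its level in C was 0.00477 at 0, 0.00876 at 1-2, 0.0916 at 3-4 and 0.160 (0.118 to 0.213) at 5 or more *Sox9* UMIs, and in D 0.00357, 0.0239, 0.0430 and 0.321 (0.243 to 0.416). Both libraries were lowest in nuclei without *Sox9* and highest in the top bin. The gene was 33.6-fold (17.6 to 69.6) higher at 5 or more than at 0 *Sox9* UMIs in C and 90.1-fold (38.9 to 256) in D. Few nuclei carried it, 16 of 197 (8.12%) in C and 13 of 114 (11.4%) in D in the top bin, against 0.552% and 0.443% of nuclei without *Sox9*. In C, 1 nucleus held 22 of the 48 UMIs, and the fold without it was 18.3. In D, 1 nucleus held 16 of the 57 UMIs, and the fold without it was 65.3. After thinning *Sox9* and the genes the fold in D was 41.6, and with 10 or more *Sox9* UMIs as the top bin that in C was 74.6. Library A had no *Col2a1* UMI in 1248 nuclei without *Sox9*, which allows a level of up to 0.00277, and library B had 11, of which 8 were in 1 nucleus.

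Type XI collagen is made of the products of *Col11a1* and *Col11a2* together with a chain from *Col2a1*, and it sets the width of the fibril. *Col11a2* (chr17:34038919-34066684) was at 0.0147, 0.0274, 0.0837 and 0.170 (0.127 to 0.224) over the rising *Sox9* bins in C, and at 0.0131, 0.0338, 0.107 and 0.107 (0.0645 to 0.167) in D. It was thus higher in each next bin in C, and level between 3-4 and 5 or more in D, where the fold between these bins was 0.996 (0.480 to 2.11). The fold of 5 or more over 0 was 11.6 (7.44 to 18.2) in C and 8.19 (4.19 to 15.9) in D, and both intervals lay below those of *Col9a3* in the same library. Its UMIs were spread widely, over 183 nuclei in all with at most 5 UMIs in any of them. Nuclei with a *Col11a2* UMI made up 15.2% of the top bin in C and 12.3% in D, against 1.43% and 1.55% without *Sox9*.

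*Col11a1* (chr3:114030479-114220756) was seen in few nuclei. In C it had 2, 6, 3 and 33 UMIs over the rising bins and in D 4, 0, 0 and 2, with none in A or B in nuclei without *Sox9*. The 33 UMIs in C came from 4 of 197 nuclei, and 18 and 13 of them from 2 of these nuclei. The ratio of 5 or more over 0 was 139 (35.5 to 1193) in C and 4.74 (0.429 to 33.1) in D, and without the top nucleus the C ratio was 63.3. In D the interval includes 1, so a difference was not detectable at this depth.

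Type IX collagen carries 1 chain each from *Col9a1*, *Col9a2* and *Col9a3* and bridges the fibril to the surrounding matrix. *Col9a3* (chr2:180598102-180622192) was at 0.00993, 0.0405, 0.0797 and 0.601 (0.517 to 0.696) over the rising *Sox9* bins in C, and at 0.00773, 0.0258, 0.0502 and 0.507 (0.408 to 0.624) in D. Of its 3 steps between bins, that from 3-4 to 5 or more *Sox9* UMIs was the steepest in both libraries, 7.55-fold (4.74 to 12.7) in C and 10.1-fold (4.71 to 25.9) in D. From 0 to 5 or more the gene was 60.5-fold (39.7 to 96.1) higher in C and 65.6-fold (36.5 to 128) in D. After thinning *Sox9* and the genes it was 34.4 in C and 32.8 in D. Of nuclei in the top bin, 20.8% (15.4 to 27.2) in C and 18.4% (11.8 to 26.8) in D carried it, against 1.06% and 0.739% without *Sox9*. After every nucleus was thinned to 5000 UMIs these shares were 13.9% and 11.5% in the top bin, against 0.572% and 0.408%.

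The partner chains of *Col9a3* were nearly undetected. *Col9a1* (chr1:24177589-24252738) had 17 UMIs in all nuclei and *Col9a2* (chr4:121039566-121055325) had 14, against 392 of *Col9a3*. *Col9a1* had 2, 2, 0 and 5 UMIs over the rising bins in C and 1, 1, 0 and 1 in D, with 5 in A and 0 in B in nuclei without *Sox9*. *Col9a2* had 1, 4, 0 and 4 UMIs in C and 2, 0, 0 and 2 in D, with none in A or B without *Sox9*. The ratio of 5 or more over 0 was 21.0 (3.44 to 221) for *Col9a1* in C and 9.48 (0.121 to 744) in D. For *Col9a2* it was 33.6 (3.33 to 1656) in C and 9.48 (0.687 to 131) in D. In D both intervals include 1, so a difference was not detectable at this depth. All 5 nuclei of the top bin with a *Col9a2* UMI, 3 in C and 2 in D, also carried *Col9a3*. Of those with a *Col9a1* UMI, 2 of 4 in C and 0 of 1 in D carried *Col9a3*, and none carried *Col9a2*.

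*Col27a1* (chr4:63214009-63334991) encodes the type XXVII collagen, a fibrillar collagen of growing cartilage. It was at 0.00795, 0.0602, 0.139 and 0.571 (0.489 to 0.664) over the rising bins in C and at 0.0131, 0.0656, 0.122 and 0.423 (0.333 to 0.530) in D. It was already higher at 1-2 than at 0 *Sox9* UMIs, 7.58-fold (4.47 to 13.3) in C and 5.01-fold (2.84 to 9.03) in D. In the same step *Col2a1* was 1.84-fold (0.651 to 4.89) in C and 6.69-fold (2.32 to 21.7) in D. The fold of 5 or more over 0 was 71.9 (45.1 to 121) in C and 32.3 (19.9 to 54.6) in D. After thinning *Sox9* and the genes to 5000 UMIs it was 28.3 in C and 18.4 in D, and as a mean of levels per nucleus 50.6 in D. *Col27a1* was carried by 22.8% of the top bin in C and 19.3% in D, against 0.691% and 0.960% without *Sox9*. The gene overlaps *Mir455* and the long noncoding RNA gene *Gm52743*. The long noncoding RNA gene *Gm46536* overlaps *Col2a1*, and the protein-coding gene *Tcfl5* overlaps an end of *Col9a3*. UMIs in these stretches cannot be assigned with certainty.

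Within the top bin the level did not follow the number of *Sox9* UMIs evenly. In C the 7 genes together were at 1.03 (0.884 to 1.19) in 124 nuclei with 5 to 9 *Sox9* UMIs, 2.91 (2.54 to 3.33) in 49 nuclei with 10 to 19 and 2.04 (1.64 to 2.51) in 24 nuclei with 20 or more. In D they were at 1.43 (1.18 to 1.71) in 59 nuclei, 0.908 (0.687 to 1.18) in 38 and 2.26 (1.76 to 2.87) in 17 in the same order. The order of these levels in the first and the middle class was thus opposite in the 2 libraries. In the middle class of C, 32 of the 217 UMIs were of *Col11a1* and came from 3 nuclei. The share of nuclei with any of the 7 genes was higher in each next class. It was 36.3%, 44.9% and 66.7% in C and 33.9%, 36.8% and 52.9% in D. Median UMIs per nucleus were 13969.5, 14221 and 17058 in C and 13154, 14772.5 and 17050 in D. *Col2a1* in nuclei with 20 or more *Sox9* UMIs was at 0.665 (0.445 to 0.955) in C, from 5 of 24 nuclei, and had 1 UMI in 17 nuclei in D. *Col9a3* was at 0.550 (0.353 to 0.819) in C and 1.48 (1.08 to 1.98) in D in that class.

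Most nuclei carried none of the genes, and several were seen together mainly in the top bin. Of nuclei with 5 or more *Sox9* UMIs, 42.1% (35.1 to 49.4; 83 of 197) in C and 37.7% (28.8 to 47.3; 43 of 114) in D had at least 1 UMI of the 7 genes, against 3.73% and 3.84% of nuclei without *Sox9*. Libraries A and B, which held almost no *Sox9* UMIs, had 2.80% and 1.87% of such nuclei at median depths of 9784.5 and 11529 UMIs. The part of free RNA in these shares was not tested. The share with UMIs of 2 or more genes was 0.230%, 1.44%, 5.23% and 17.8% (12.7 to 23.8; 35 nuclei) over the rising bins in C. In D it was 0.222%, 1.37%, 3.12% and 17.5% (11.1 to 25.8; 20 nuclei). None of the 1248 and 750 nuclei without *Sox9* in A and B had 2 of the genes, which allows shares of up to 0.295% and 0.491%. Co-detection was therefore highest in the top bin of both libraries, where 8.63% of nuclei in C and 8.77% in D had 3 genes or more. When every nucleus was thinned to 5000 UMIs, which left out 10 nuclei of the top bin in C and 1 in D, the share with 2 or more genes was 9.09% (5.39 to 14.2) in C and 8.85% (4.33 to 15.7) in D, against 0.0520% and 0.0816% of nuclei without *Sox9*.

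**Figure D2:**
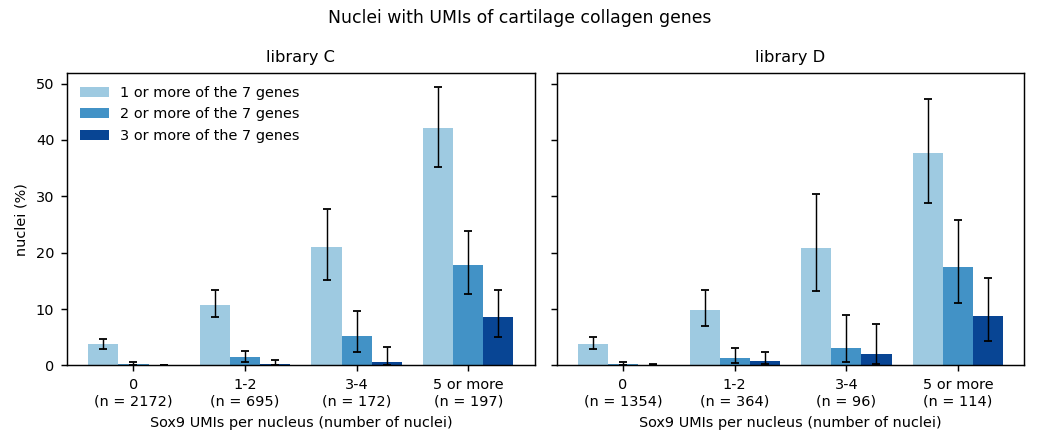
Percent of nuclei with UMIs of 1 or more, 2 or more and 3 or more of the 7 cartilage collagen genes by *Sox9* UMIs per nucleus, in libraries C (left) and D (right). Bars are shares with exact Clopper-Pearson 95% intervals, and 17.8% of 197 nuclei in C and 17.5% of 114 in D carry 2 or more genes at 5 or more *Sox9* UMIs.

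Within the bin of 5 or more *Sox9* UMIs, pairs of the 4 genes seen in most nuclei were counted. Each count was set beside the one that the product of their shares in that bin would give. *Col9a3* and *Col27a1* were found together in 17 nuclei in C, where the product of their shares gives 9.37, and in 12 in D, where it gives 4.05. *Col2a1* and *Col9a3* shared 10 nuclei in C (product 3.33), which are 62.5% of the nuclei with *Col2a1* and 24.4% of those with *Col9a3*. In D they shared 8 (product 2.39), or 61.5% and 38.1%. *Col11a2* shared 16 nuclei with *Col9a3* (product 6.24) and 17 with *Col27a1* (product 6.85) in C, and 6 (2.58) and 5 (2.70) in D. *Col2a1* shared 7 nuclei with *Col11a2* (2.44) and 7 with *Col27a1* (3.65) in C, and 2 (1.60) and 6 (2.51) in D. In this bin the count lay above the product in each of these pairs in both libraries. The product is a description and not a test, since nuclei within a bin differ in depth, *Sox9* and state. The nucleus with the most UMIs of *Col9a3* had 29, along with 10 of *Col27a1*, 3 of *Col2a1*, 3 of *Col11a2* and 2 of *Col9a2* beside 13 of *Sox9*, among 13306 UMIs in library C. The nucleus with the most UMIs of *Col27a1* had 31, with 7 of *Col9a3*, 1 of *Col2a1* and 1 of *Col11a2*, beside 8 of *Sox9*. The nucleus with the most UMIs of *Col11a1* had 18, with 4 of *Col2a1*, 3 of *Col27a1* and 1 of *Col9a3*.

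**Figure D3:**
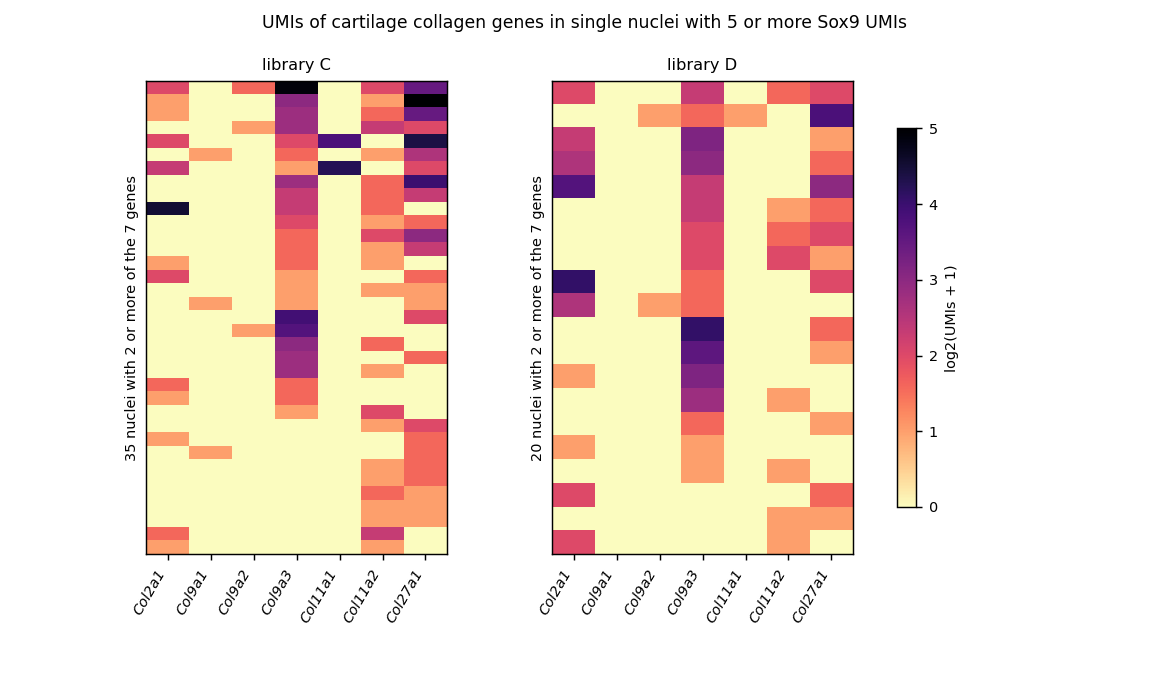
Each row is 1 nucleus with 5 or more *Sox9* UMIs and UMIs of 2 or more of the 7 genes (35 in library C, left, and 20 in D, right), each column a gene, and colour the log2 of UMIs plus 1. *Col2a1*, *Col9a3*, *Col11a2* and *Col27a1* recur across rows, while *Col11a1* has high UMIs in 2 nuclei of C with 18 and 13.

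Nuclei of the top bin that carried several of the genes had more *Sox6* and less ATII RNA. *Sox6*, the partner of Sox9 in chondrocytes, was at 6.41 (5.72 to 7.15) in the 35 nuclei with 2 or more of the genes, 2.89 (2.52 to 3.30) in the 48 with 1 and 0.953 (0.814 to 1.11) in the 114 with none in C. In D it was at 5.69 (4.87 to 6.6) in 20 nuclei, 2.39 (1.92 to 2.95) in 23 and 1.25 (1.05 to 1.48) in 71. The summed level of 12 ATII markers ran the other way, at 30.6, 153 and 363 in C and 79.2, 160 and 419 in D, in the same order of 2 or more, 1 and none. The ATI markers were at 11.5, 17.1 and 34.3 in C and 23.1, 14.2 and 43.1 in D, and the transitional markers at 82.2, 58.0 and 69.1 in C and 73.8, 95.5 and 85.7 in D. Median UMIs per nucleus, in that order, were 13442, 14329 and 14958 in C and 13161.5, 13259 and 14850 in D. Median *Sox9* UMIs were 11, 8 and 7 in C and 10, 10 and 8 in D. The part of depth, *Sox9* and alveolar RNA in the co-detection was not tested.

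Over the *Sox9* bins the markers of the alveolar cells differed too. The ATII markers were at 539, 487, 445 and 255 over the rising bins in C and at 552, 462, 436 and 307 in D. The 12 ATI markers were at 26.2 at 5 or more against 68.8 at 0 *Sox9* UMIs in C and at 33.7 against 71.9 in D. The 12 markers of the transitional state between ATII and ATI were at 68.5 against 62.2 in C and 85.7 against 74.0 in D. All bins thus had ATII RNA, at a lower level where the collagen genes were high. In top-bin nuclei with 2 or more of the genes it was at 30.6 in C and 79.2 in D. The part of these differences in the collagen result, and of free RNA in the ATII levels, was not tested. The 9 airway secretory markers were at 18.7, 12.3, 1.29 and 1.45 over the rising bins in C and at 38.3, 54.4, 37.5 and 1.29 in D. In D they were thus low in the top bin only. The part of airway RNA in the steps between bins was not tested. With nuclei of 10 or more airway marker UMIs left out, a step chosen after seeing the data, the fold of the 7 genes together was 40.5 in C and 40.2 in D. That step moved *Col27a1* in D to 62.6 and the ratio of *Col11a1* in C, with its few UMIs, to 266.

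Most other chondrocyte markers were near 0. The 10 chondrocyte markers other than collagens summed to 0.0802 (0.0514 to 0.119) at 5 or more against 0.0135 at 0 *Sox9* UMIs in C and 0.169 (0.114 to 0.241) against 0.0345 in D, and 5 of the 10 in C and 6 in D had no UMI in the top bin. *Acan*, the main proteoglycan of cartilage, had no UMI in the top bin of either library. The 25 *Comp* UMIs of the top bin in D came from 2 nuclei. The 13 mesenchymal markers were at 0.210 (0.162 to 0.269) against 0.168 in C and 0.259 (0.190 to 0.346) against 0.218 in D, with 8 of 13 and 9 of 13 at 0 in the top bin. *Col1a2* and *Col3a1* of this list had no UMI there in either library, while *Col1a1*, also of this list, had UMIs there in D.

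Other genes of the pathway were counted by the same rule of 30 UMIs and 2-fold, from lists set with earlier results known. Here too a gene of low level can reach 30 UMIs through the bin where it is high. The counts are therefore not read as results on the whole lists. Each count stands beside the share of all genes, 5.67% higher and 4.89% lower in C and 4.81% higher and 6.06% lower in D, and the median log2 fold over all genes was 0.00 in C and -0.03 in D. Of 7 other fibrillar collagens none could be compared in C, and in D *Col1a1* alone could be, at 2 UMIs against 80 and 0.237-fold (0.0282 to 0.885). Of 9 other collagens of the fibril-associated and short-chain kinds, 3 in C and 4 in D could be compared. None of these was called higher or lower, with medians of -0.83 and 0.23. *Col12a1*, the most counted of them, was at 0.524-fold in C and 0.936-fold in D.

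Of 10 collagens of basement membranes and cell surfaces that could be compared, 2 were higher and 2 lower in each library (all genes 5.67% and 4.89% in C, 4.81% and 6.06% in D). *Col18a1*, a basement membrane collagen, was 2.47-fold (2.08 to 2.93) higher in C and 3.04-fold (2.33 to 3.91) in D. *Col6a1*, a chain of the microfibrillar type VI collagen, was 2.60-fold (1.59 to 4.11) and 2.61-fold (1.21 to 5.18) higher. *Col4a3* and *Col4a4*, the chains of type IV collagen that ATI cells lay into the alveolar basement membrane, were lower, at 0.200-fold and 0.204-fold in C and 0.351-fold and 0.298-fold in D. The list's medians were -0.09 and 0.01.

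Regulators of cartilage were higher for 2 of 8 in each library and lower for 2 of 8 in C and 1 of 8 in D, with medians of -0.43 and -0.40. Of all genes 5.67% in C and 4.81% in D were higher and 4.89% and 6.06% lower. *Sox6* was 13.3-fold (11.8 to 15.1) higher in C and 9.65-fold (8.37 to 11.1) in D. *Pthlh*, the parathyroid hormone-like signal of growing cartilage, was 11.5-fold (8.64 to 15.3) and 7.24-fold (5.36 to 9.77) higher. *Scx*, a tendon transcription factor, was lower at 0.333-fold and 0.296-fold, and *Fgfr3*, a receptor that restrains cartilage growth, was at 0.378-fold in C and 0.561-fold in D. In the matrix list 2 of 18 genes could be compared, with medians of 0.11 and 0.16. *Matn2* was higher at 2.19-fold (1.06 to 4.21) in C and 3.03-fold (1.18 to 6.94) in D, and *Matn4* was at 0.532-fold in C and 0.409-fold in D, where it was called lower.

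Genes for the sulfated sugar chains of proteoglycans were higher for 4 of 11 in C and 2 of 9 in D (all genes 5.67% and 4.81%), with none lower and medians of 0.18 and -0.39. *Ugdh*, which makes the sugar precursor, was 4.46-fold (3.92 to 5.06) higher in C and 3.50-fold (2.96 to 4.13) in D. *Papss2*, which makes the sulfate donor, was 2.33-fold (1.54 to 3.45) and 5.06-fold (2.95 to 8.48) higher. In C *Chst11*, a chondroitin sulfotransferase, was 47.7-fold (23.2 to 110) higher and *Csgalnact1*, which starts the chondroitin chain, 3.36-fold (2.45 to 4.57). In D *Chst11* had 27 UMIs against 2, too few for a call, and *Csgalnact1* was at 0.948-fold.

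Of the genes that fold and process collagen, 2 of 22 in C and 2 of 21 in D were higher and 3 and 2 lower, with medians of 0.00 and 0.01. Of all genes 5.67% and 4.81% were higher and 4.89% and 6.06% lower. Counts of 2 and 3 on so few genes are not read as a difference from these shares. *Plod2*, a lysyl hydroxylase that sets collagen crosslinks, was 7.76-fold (6.74 to 8.94) higher in C and 7.47-fold (6.20 to 8.99) in D, and the lysyl oxidase relative *Loxl4* was 3.98-fold (2.14 to 7.15) and 3.86-fold (1.73 to 8.05) higher. *Pcolce*, an enhancer of procollagen cleavage, was lower at 0.342-fold in C and at 1.05-fold in D. Of the collagen receptors, 1 of 7 in C was higher and 1 of 6 in D lower, with medians of -0.08 and -0.16. They were *Ddr1*, at 2.23-fold (1.99 to 2.49) in C and 1.89-fold in D, and the integrin subunit *Itga2*, at 0.950-fold in C and 0.347-fold in D.

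Genes whose level was most like that of the 7 together were sought over the 10 groups of library and *Sox9* bin with 50 nuclei or more, among 13666 genes. Among the most alike were *Tubb2a*, *St3gal4*, *Lima1* and *Bzw2*, with Pearson's r of 0.996, 0.994, 0.993 and 0.993 on log2 of the level plus 0.01. *Sox6* reached 0.951 (rank 196) and *Sox9* itself 0.950 (rank 202). The 10 groups share libraries and are ordered by *Sox9* in C and D, so many genes reach a high r. *Tubb2a*, a tubulin, was 4.96-fold (4.57 to 5.38) higher at 5 or more than at 0 *Sox9* UMIs in C and 5.31-fold (4.80 to 5.87) in D.

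Accessibility of a gene is the sum of ATAC counts in its peaks, those over it or in the 2000 bp on either side, per 10000 counts in all peaks. The gene table gives no exons, so peaks are placed by their distance from the gene's lower-numbered end. All 7 genes had peaks and 30 counts or more. *Col9a3*, *Col9a2* and *Col11a2*, which are 3 of the 7, were 2-fold or more higher at 5 or more than at 0 *Sox9* UMIs in both libraries, as were 1.05% of 19369 gene windows. In 1 library at a time 1.89% of 19461 windows in C and 1.78% of 19402 in D were. None of the 7 was lower in either library, where 1.18% and 1.52% of windows were.

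Of the 7 genes, *Col9a3* had the highest accessibility fold in both libraries. Its 2 peaks gave 0.0438, 0.0685, 0.172 and 0.304 (0.242 to 0.378) over the rising *Sox9* bins in C and 0.0254, 0.0739, 0.132 and 0.319 (0.248 to 0.403) in D, while *Sox9*-free nuclei had 0.0249 in library A and 0.0234 in library B. Both C and D were higher in each next bin. The fold of 5 or more over 0 was 6.94 (5.11 to 9.42) in C and 12.5 (8.60 to 18.4) in D. Counting all peaks within 10000 bp it was 1.85 and 2.07. The peak inside the gene (chr2:180604488-180605411, centred 6847 bp from the lower-numbered end) was 8.41-fold (5.75 to 12.3) higher in C and 13.7-fold (8.53 to 22.4) in D. It had counts in 19.8% and 29.8% of top-bin nuclei, against 2.53% and 2.22% of nuclei without *Sox9*. Median ATAC counts per nucleus were 12577 in the top bin against 9013 at 0 in C, and 16531 against 13205 in D. The part of this depth in the shares was not tested. The peak over the gene's lower-numbered end (chr2:180598036-180598911) was 4.79-fold (2.73 to 8.23) higher in C and 10.6-fold (5.59 to 20.4) in D. *Col9a3* was not among the genes with a listed promoter, so neither end is called its start here. *Tcfl5* overlaps the other end of *Col9a3*, away from both peaks.

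*Col11a2* was at 0.104, 0.152, 0.230 and 0.367 (0.299 to 0.447) over the rising bins in C and at 0.0968, 0.172, 0.221 and 0.309 (0.240 to 0.393) in D. Both libraries were again higher in each next bin, with a fold of 5 or more over 0 of 3.54 (2.77 to 4.51) in C and 3.20 (2.38 to 4.24) in D. Counting all peaks within 10000 bp it was 1.26 and 1.34. The peak over the promoter printed above (chr17:34038259-34039081) was 4.31-fold (2.92 to 6.28) higher in C and 2.96-fold (1.79 to 4.75) in D. That peak also reaches *Rxrb*, which ends at 34038403, so its counts belong to both genes. The next peak inside the gene (chr17:34040818-34041645) does not reach it, and was 3.10-fold (2.23 to 4.26) and 3.35-fold (2.30 to 4.78) higher.

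*Col9a2* had little RNA, yet its chromatin differed. It was at 0.0593, 0.0812, 0.0862 and 0.174 (0.128 to 0.232) over the rising bins in C and at 0.0653, 0.0670, 0.114 and 0.162 (0.113 to 0.225) in D, 2.94-fold (2.06 to 4.13) and 2.47-fold (1.65 to 3.62) higher at 5 or more than at 0. The promoter peak (chr4:121039436-121040260) was 1.84-fold (0.949 to 3.32) in C and 3.51-fold (2.05 to 5.83) in D. The peak centred 1623 bp from the lower-numbered end was 3.94-fold (2.52 to 6.06) in C and 1.65-fold (0.838 to 3.00) in D.

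*Col2a1*, *Col11a1*, *Col27a1* and *Col9a1* differed less over the whole gene. *Col2a1* was 1.48-fold (1.15 to 1.87) in C and 1.13-fold (0.850 to 1.49) in D, and none of its 3 peaks reached 2-fold in either library. *Col27a1* was 1.11-fold (0.913 to 1.33) and 1.34-fold (1.08 to 1.64), with folds of 0.929 (0.582 to 1.42) and 1.16 (0.724 to 1.77) over the promoter printed above. *Col11a1* was 1.25-fold (0.943 to 1.63) and 1.13-fold (0.814 to 1.53). *Col9a1* was 1.79-fold (1.38 to 2.28) in C and 1.20-fold (0.840 to 1.67) in D. The RNA folds of *Col27a1* and *Col2a1* thus stood beside accessibility folds under 2, with an interval above 1 in 1 library for each, D for *Col27a1* and C for *Col2a1*.

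Of the 24 peaks, 23 had 30 counts or more in both libraries, and 7 of these were 2-fold or more higher in both. Among single peaks of the whole matrix, 5.78% of 101840 were so in both libraries. In 1 library at a time 8.82% of 104542 in C and 9.11% of 102685 in D were 2-fold or more higher, and 6.7% and 7.39% were 2-fold or more lower. The 7 peaks are both of *Col9a3*, both of *Col11a2* and 1 each of *Col9a1*, *Col11a1* and *Col27a1*. The *Col9a1* peak (chr1:24230163-24230995, 52990 bp into the gene) was 4.48-fold (2.27 to 8.53) in C and 4.63-fold (1.93 to 10.4) in D. The *Col11a1* peak (chr3:114191926-114192839, 161903 bp into the gene) was 3.19-fold (1.86 to 5.31) and 2.89-fold (1.66 to 4.84). The *Col27a1* peak (chr4:63315860-63316775, 102308 bp into the gene) was 2.22-fold (1.38 to 3.46) and 2.75-fold (1.55 to 4.65). In these 3 genes a single peak was thus higher in both libraries while the whole gene was not 2-fold higher. A further *Col27a1* peak passed 2-fold in both libraries on few counts, 5 against 16 in C and 5 against 15 in D. The lowest fold was that of a *Col11a1* peak 157130 bp into the gene, at 0.353 (0.0943 to 0.936) in C and 0.610 (0.218 to 1.38) in D. A *Col27a1* peak 96603 bp into the gene was at 0.566 (0.325 to 0.926) in C and 0.832 (0.455 to 1.41) in D.

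**Figure D4:**
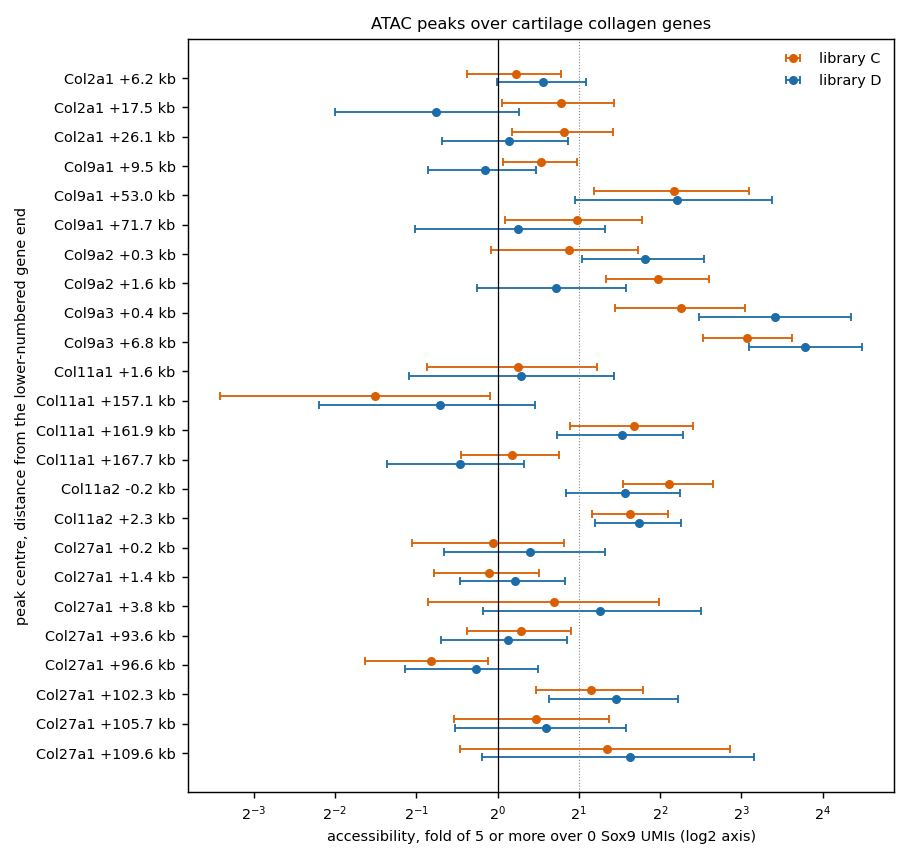
Fold of accessibility at 5 or more over 0 *Sox9* UMIs (log2 axis) for the 24 peaks over the cartilage collagen genes in libraries C (orange) and D (blue), with exact 95% intervals, named by gene and by the distance of the peak's centre from the lower-numbered gene end. The dotted line marks 2-fold, and both *Col9a3* peaks lie beyond 4.79 in each library.

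RNA and accessibility were also set side by side within the top bin. Nuclei with a *Col11a2* UMI had 2.06-fold (1.27 to 3.24) the *Col11a2* accessibility of nuclei without one in C, and 1.96-fold (1.02 to 3.54) in D. For *Col9a3* the fold was 1.37 (0.795 to 2.29) in C and 1.88 (1.07 to 3.21) in D. For *Col27a1* it was 0.851 (0.538 to 1.31) and 0.881 (0.507 to 1.46), with both intervals including 1. The other genes had UMIs in too few nuclei for a narrow interval. The nuclei with and without a UMI also differed in *Sox9*. For *Col11a2* the median *Sox9* UMIs were 9.5 with and 8 without in C, and 11.5 and 9 in D. For *Col9a3* they were 10 and 8 in C and 15 and 9 in D, and for *Col27a1* 9 and 8 in C and 9 and 9 in D. The part of *Sox9* in these folds was not tested.

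For *Col9a3*, *Col11a2* and *Col9a2* accessibility was higher in the top bin also where no collagen RNA was seen. In nuclei with 5 or more *Sox9* UMIs and no UMI of any of the 7 genes, *Col9a3* was 4.86-fold (3.15 to 7.32) more accessible than in nuclei without *Sox9* in C (114 nuclei) and 8.95-fold (5.54 to 14.3) in D (71 nuclei). *Col11a2* was 2.18-fold (1.48 to 3.14) and 2.58-fold (1.74 to 3.73), and *Col9a2* 2.24-fold (1.33 to 3.61) and 2.59-fold (1.58 to 4.05). The other 4 genes had an interval that includes 1 in at least 1 library. *Col2a1* was 1.31-fold (0.921 to 1.81) and 1.1-fold (0.761 to 1.54), and *Col11a1* 1.19-fold (0.812 to 1.69) and 0.877-fold (0.549 to 1.34). *Col27a1* was 1.24-fold (0.969 to 1.56) and 1.32-fold (1.01 to 1.70), and *Col9a1* 1.76-fold (1.26 to 2.41) and 1.19-fold (0.759 to 1.79). A nucleus without a UMI may still hold RNA that was not captured.

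**Figure D5:**
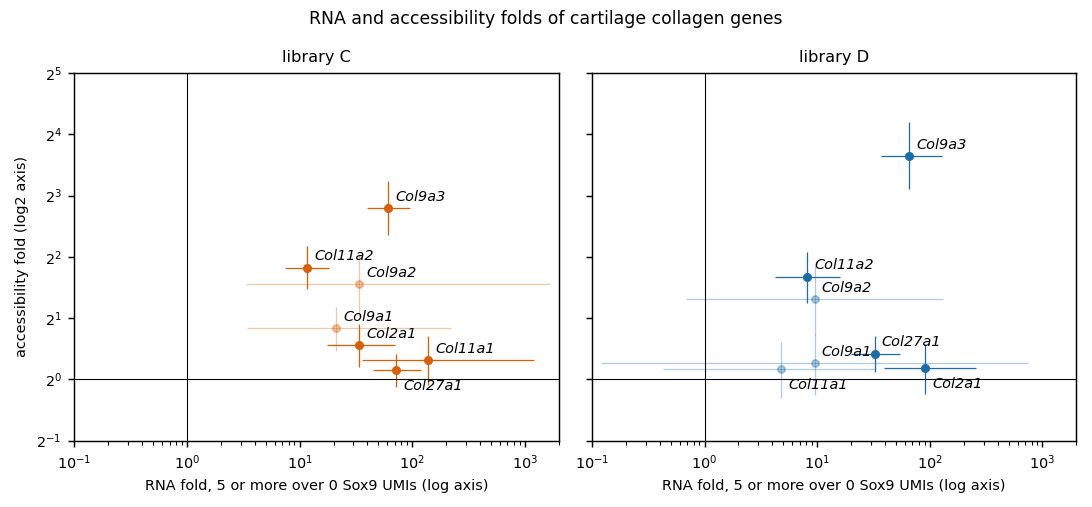
RNA fold (log axis) against accessibility fold (log2 axis) of each cartilage collagen gene at 5 or more over 0 *Sox9* UMIs in libraries C (left) and D (right), with exact 95% intervals and pale points for genes under 30 UMIs in both bins together. *Col9a3* is high on both axes (60.5 and 6.94 in C), while *Col27a1* has an RNA fold of 71.9 and an accessibility fold of 1.11 in C.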

How the data were processed

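The authors deposited raw counts, per the file headers and values, as a pooled matrix of UMIs per gene and nucleus (32285 genes, 7224 nuclei) and one of ATAC counts per peak. The tools listed, per the submitters' processing notes, are Signac 1.10.0, Seurat 4.3.0 and Cell Ranger 6.0.1, and the builds are mm10 and GRCm38, without their roles. The sources used here do not name the peak caller.

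Nuclei were kept with at least 500 UMIs, 300 genes and under 20% mitochondrial UMIs, which removed 25. Scrublet, run in scanpy 1.11.5 per library, marked 15 (0.208%), which were removed. A caller that marks so few nuclei has not worked, so doublets can remain. Levels and folds carry exact Poisson, Clopper-Pearson and conditional binomial 95% intervals (Python 3.11.15, numpy 2.4.6, scipy 1.17.1, pandas 2.3.3), and the calculation of folds was tested on simulated data. PCR copies are collapsed by UMI for RNA only. A count below 3 was set to 3 in the counts over all genes and in list medians.

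Gene positions came from a RefSeq table of GRCm38.p6 that placed 26296 genes (81.4%). As a check of the build, 48.7% of RefSeq promoters overlapped a peak, against 8.04% after a shift of 100000 bp. Peak positions are as the authors list them.

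The 7 genes and all lists were chosen with earlier results of these data known. Named were the 7 genes, *Sox9*, up to 4 genes per list past 2-fold with 30 UMIs, and the 5 genes most like the 7, of which 1 is not reported here. *Acan*, *Comp*, *Col1a2*, *Col3a1* and *Col12a1* were named after their values were seen. The planned test of Sox9-Cre against Cre was not run, since no label ties barcodes to samples. Files listing multiplexing oligos of samples outside the labels were not used.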

Additional observations from a re-analysis of the deposited data

How the results depend on the processing

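No paired analysis was possible because no label ties the barcodes to samples, so the test of Sox9-Cre against Cre, its replicate block and leaving out replicates were not run. For the 7 genes together the RNA fold of 5 or more over 0 *Sox9* UMIs (41.8 in C, 33.3 in D, 42.4 pooled) stayed above 1 in every alternative run. Bins by *Sox9* per 10000 UMIs gave 54.3 in C and 53.0 pooled. Thinning *Sox9* and the genes to 5000 UMIs gave 28.8 in C, 18.8 in D and 29.4 pooled. A top bin of 10 or more gave 65.9 in C, 32.5 in D and 56.2 pooled. The accessibility fold (1.80, 1.71 and 1.81) was 1.40, 1.38 and 1.41 with peaks within 10000 bp. That window takes in further peaks outside the genes. The share of top-bin nuclei with 2 or more of the genes was 9.09% in C, 8.85% in D and 8.97% pooled after thinning, and 9.64%, 10.5% and 9.94% with 2 UMIs needed per gene, against 17.6% pooled as counted. The share with any of the genes was 29.9% in C and 29.6% pooled after thinning, and 24.9%, 21.1% and 23.4% with 2 UMIs, against 40.4% pooled as counted. With at least 10 UMIs per gene, 1338 genes in C and 987 in D were 2-fold or more higher, against 781 and 623. Of the genes with few UMIs, the fold of *Col9a1* was 0 in C and pooled after thinning and 0 in D without its top nucleus, and that of *Col9a2* was 0 in D after thinning. *Col11a1* pooled was 263 without library D and 11.1 without library C, against 79.1. The alternative without airway-marked nuclei was chosen after seeing the data. For these values the cause was not tested. UMI depth limits *Col9a1*, *Col9a2* and, in D, *Col11a1*, and with nuclei of unknown sample no spread between cultures or mice could be measured.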
